A study of Homo sapiens with 8 samples.

Results

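The NRF2 antioxidant and glutathione genes are taken here as NFE2L2, KEAP1, HMOX1, NQO1, GCLC, GCLM, TXNRD1, SRXN1, GPX4 and GSR. The genes were taken by symbol, in a list chosen with earlier results of these data known. Each of the 10 matched 1 row of the 23562 rows in the count table. The cells were OCI-AML5, a long-established line grown out of a human acute myeloid leukemia, and poly(A) RNA was sequenced in 8 libraries. Cells of the sgCEBPD group had received lentiCRISPRv2, a lentiviral vector that carries Cas9 together with its guide, with 1 of 4 guides against CEBPD (sgCEBPD 1 to 4). Cells of the sgControl group had received the same vector with 1 of 4 non-specific guides (sgControl 1 to 4), so both groups carried Cas9, and every library had its own guide. No label states whether the cells were a pool or a clone, or that libraries came from separate cultures, so a p-value here reflects only how far these libraries spread, which may be technical.

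NRF2, encoded by NFE2L2, is a transcription factor that KEAP1 binds in the cytosol and hands to the ubiquitin machinery for destruction. Oxidants and electrophiles modify KEAP1, and NRF2 then accumulates, pairs with small MAF proteins and binds antioxidant response elements of its target genes. BACH1 competes for the same elements and holds back HMOX1 in particular until heme displaces it. In myeloid cells the program buffers the oxidants of the phagocyte oxidase, and heme oxygenase 1, the product of HMOX1, is well known in macrophages that take up hemoglobin.

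The core of the antioxidant response element is TGACNNNGC, which reads GCNNNGTCA on the other strand. Both strands of the RefSeq promoter windows (GRCh38.p14, 250 bases before to 50 bases after each start) were searched for it, and 13.3% of all 35116 windows held a match. Of the 10 genes, 8 had an entry, with 13 windows, and 4 windows of 3 genes held a match: GCLM, TXNRD1 and KEAP1. The windows of GCLM and of both TXNRD1 starts are shown because these 2 target genes were among the 5 that lay below every other library in sgCEBPD 3. KEAP1, with a match, and NQO1 and GPX4, with none, were the others of the 5. HMOX1, which lay far above, had no window, so match and level were not compared. The capitals mark the core match, and each sequence reads 5′ to 3′ on the strand of the gene. The GCLM window is chr1:93909381-93909680 (minus strand), and the TXNRD1 windows are chr12:104215529-104215828 and chr12:104286782-104287081 (plus strand).
GCLM: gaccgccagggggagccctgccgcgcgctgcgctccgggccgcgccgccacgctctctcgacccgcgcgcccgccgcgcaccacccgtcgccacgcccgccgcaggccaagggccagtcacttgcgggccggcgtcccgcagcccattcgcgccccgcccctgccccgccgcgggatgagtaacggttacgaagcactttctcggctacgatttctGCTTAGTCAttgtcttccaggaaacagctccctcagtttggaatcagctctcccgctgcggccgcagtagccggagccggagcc
TXNRD1 upstream start: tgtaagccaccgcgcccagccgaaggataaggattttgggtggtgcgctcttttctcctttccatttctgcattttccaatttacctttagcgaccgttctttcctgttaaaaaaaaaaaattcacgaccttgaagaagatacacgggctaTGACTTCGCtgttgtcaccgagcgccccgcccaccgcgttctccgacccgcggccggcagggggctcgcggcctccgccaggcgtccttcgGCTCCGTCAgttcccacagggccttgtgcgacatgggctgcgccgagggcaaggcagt
TXNRD1 downstream start: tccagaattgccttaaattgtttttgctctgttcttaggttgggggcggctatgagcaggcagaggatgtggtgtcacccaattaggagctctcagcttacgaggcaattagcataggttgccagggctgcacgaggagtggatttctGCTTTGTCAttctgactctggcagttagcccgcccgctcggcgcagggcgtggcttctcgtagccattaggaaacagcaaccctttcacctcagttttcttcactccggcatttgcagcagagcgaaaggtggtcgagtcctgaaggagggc
The first base of the match lay at -34 in the GCLM window, at -99 and -8 at the upstream TXNRD1 start, and at -102 at the downstream TXNRD1 start, counted from the start site. One KEAP1 window held 2 matches, at -54 and -31. The windows of NFE2L2, NQO1, GCLC, GPX4 and SRXN1 held none, which says only that these letters are not in these windows.

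Library totals lay between 10217751 and 11521209 counts, and levels are given as CPM, read counts scaled to library depth with TMM normalisation. CEBPD, the targeted gene, stood at 106, 209, 194 and 164 CPM in sgCEBPD 1, 2, 3 and 4, against 216, 203, 205 and 202 CPM in sgControl 1 to 4, and its transcript level does not measure the edit. Of 9 myeloid markers, 7 passed the filter on low counts, such as CD33 at 98.8 to 143 CPM and SPI1 at 297 to 432 CPM. ANPEP (at most 0.472 CPM) and CSF2RA (at most 1.08 CPM) were each at 0 in some libraries, and KIT stood at 2.45 CPM in sgCEBPD 3 against 18.01 to 51.7 CPM elsewhere. The library sgCEBPD 3 stood apart: 69.7% of all 13838 tested genes lay outside the range of the other 7 libraries there. Its monocyte and macrophage markers, 18 of the 20 listed in the table, summed to 1450 CPM, against 594 to 759 CPM in sgCEBPD 1, 2 and 4 and 590 to 644 CPM in the controls. Of these 18 markers, 16 were above every other library in sgCEBPD 3, such as CD14 at 40.9 CPM against 0 to 2.74 CPM elsewhere, and none was at 0 there. Markers of T and NK cells summed to 65.8 CPM in sgCEBPD 3, of which CD3D made up 52.5 CPM, against at most 25.5 CPM elsewhere, and epithelial and fibroblast markers summed to at most 1.81 CPM in any library. Each result is therefore given with and without sgCEBPD 3, and in bulk RNA fewer cells of a type and less RNA per cell cannot be told apart.

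None of the 10 genes differed between sgCEBPD and sgControl past the threshold, which was 0.05 on the adjusted p of the quasi-likelihood test in edgeR. HMOX1 showed the largest fold difference of the 10, a mean of 17.6 CPM in sgCEBPD against 2.70 CPM in sgControl, most of it from sgCEBPD 3. The other 9 genes had log2 fold changes between -0.20 and 0.22 with 8 libraries. With all 8 libraries 11 of 13838 genes were called (0.0795%), and without sgCEBPD 3 283 of 14047 were called (2.01%). At an unadjusted p under 0.05, 1 of the 10 genes passed in each comparison, HMOX1 both times, beside 11.4% and 15.5% of all genes tested with and without sgCEBPD 3. DESeq2 and limma-voom, with or without library quality weights, also called 0 of the 10 in both comparisons. In no gene were the groups free of overlap, which 9.59% of all genes were with 8 libraries and 14.4% without sgCEBPD 3. The median log2 fold change of the 10 genes was -0.01 with 8 libraries and 0.03 without sgCEBPD 3, against 0.00 for all genes tested in both.

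**Figure D1:**
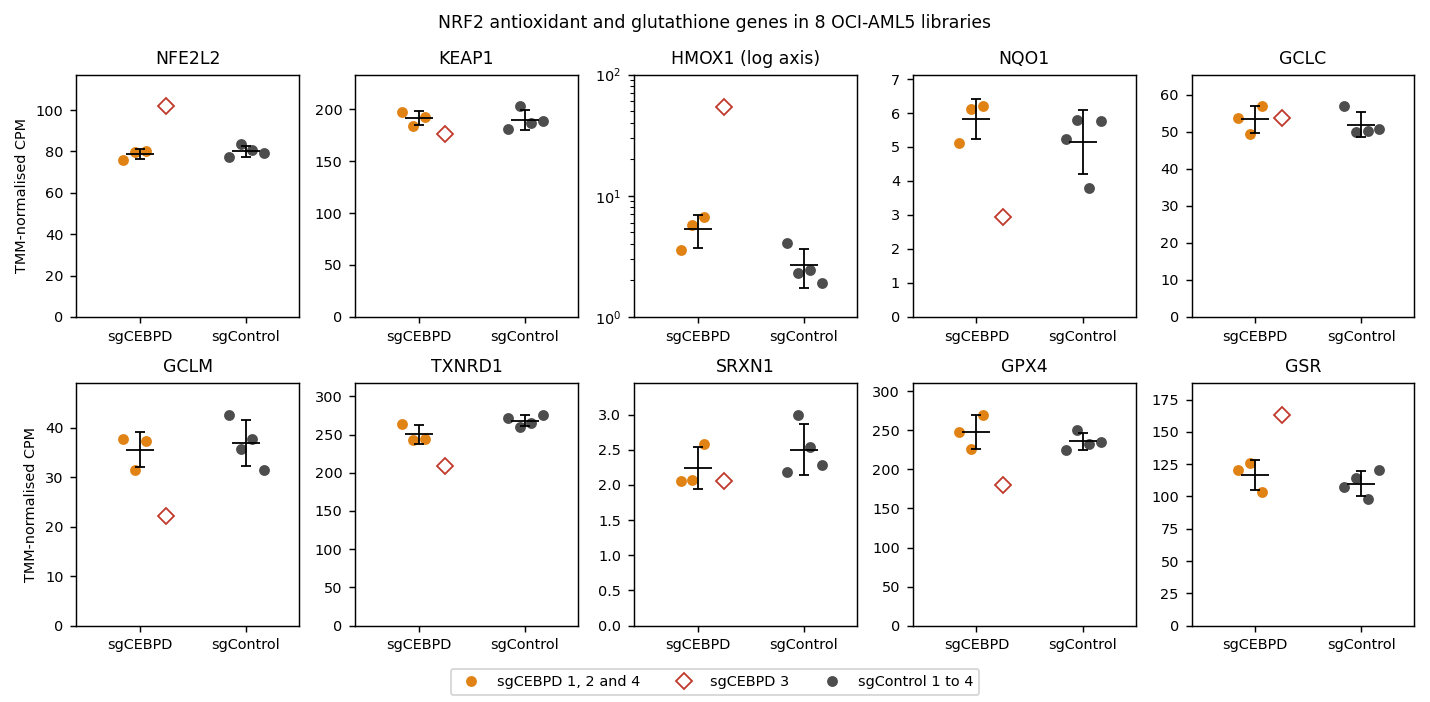
TMM-normalised CPM of the 10 genes in every library, sgCEBPD on the left and sgControl on the right of each panel, with a log axis for HMOX1 and axes from 0 elsewhere. Bars give the mean and SD of sgCEBPD 1, 2 and 4 (n = 3) and of sgControl (n = 4), and the open diamond is sgCEBPD 3, where HMOX1 reached 54.4 CPM and NQO1, GCLM, TXNRD1 and GPX4 lay below all other libraries.

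The regulators themselves held near the control level outside sgCEBPD 3. NFE2L2 (chromosome 2, 177227595 to 177392697, minus strand, GRCh38) stood at 76.0, 79.7, 102 and 80.5 CPM in sgCEBPD 1, 2, 3 and 4, against 77.4, 83.4, 80.6 and 79.1 CPM in sgControl 1 to 4. The groups overlapped, and sgCEBPD 3 was above the other 7 libraries, with a 95% Wilson interval of 95.9 to 108 CPM that covers counting error only. For NFE2L2 the log2 fold change was 0.08 (SE 0.10, edgeR adjusted p = 0.742) with 8 libraries and -0.02 (95% interval -0.14 to 0.09) without sgCEBPD 3. KEAP1, the substrate adaptor that marks NRF2 for degradation (chromosome 19, 10486120 to 10503741, minus strand), stood at 197.5, 184, 176 and 193 CPM in sgCEBPD 1, 2, 3 and 4, against 181, 203, 186 and 189 CPM in sgControl 1 to 4. The groups overlapped here too, and although sgCEBPD 3 was the lowest library, its interval of 168 to 184 CPM reached the lowest control. For KEAP1 it was -0.02 with 8 libraries and 0.02 without sgCEBPD 3 (95% interval -0.10 to 0.13).

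The NFE2L2 to KEAP1 ratio of CPM was 0.580 in sgCEBPD 3, against 0.385 to 0.433 in sgCEBPD 1, 2 and 4 and 0.411 to 0.433 in the controls. Ratios within a library do not depend on its scaling, so the shift in sgCEBPD 3 stands under any library size factor. Exons of NFE2L2 share 17.6% of their bases with a same-strand transcript, 3.2% with an antisense transcript and 0.9% with the opposite-strand gene AGPS in GENCODE release 29, and the strand setting of the counting is not given in the sources used here.

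HMOX1 was high in sgCEBPD 3 and low everywhere else. HMOX1 encodes heme oxygenase 1, which opens the heme ring and releases iron, carbon monoxide and biliverdin (chromosome 22, 35380361 to 35394214, plus strand). It stood at 3.55, 5.76, 54.4 and 6.72 CPM in sgCEBPD 1, 2, 3 and 4, against 4.10, 2.32, 2.45 and 1.92 CPM in sgControl 1 to 4. The groups overlapped, because sgCEBPD 1 lay below sgControl 1, while sgCEBPD 2, 3 and 4 were above every control. The value in sgCEBPD 3 rested on 555 reads (95% Wilson interval 50.0 to 59.1 CPM), against 38 to 78 reads in sgCEBPD 1, 2 and 4 and 21 to 47 reads in the controls. It was 10.2-fold the mean of sgCEBPD 1, 2 and 4 and 20.2-fold the mean of the controls, and a single library allows no test of that. Of all tested genes, 6.97% were past 2-fold above the mean of sgCEBPD 1, 2 and 4 in sgCEBPD 3, and 6.11% were past 2-fold below it. HMOX1 was the only one of the 10 genes past 2-fold in either direction.

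With 8 libraries the log2 fold change of HMOX1 was 2.70 (SE 0.90, 95% interval 0.64 to 4.75, adjusted p = 0.345 in edgeR), and DESeq2 gave no adjusted p for it. That value was 1.80 in limma-voom, 0.96 with library quality weights and 0.98 without sgCEBPD 3, with adjusted p between 0.134 and 0.701 over all alternatives that gave one. Without sgCEBPD 3, HMOX1 averaged 5.34 ± 1.63 CPM in sgCEBPD (SD, n = 3) and 2.70 ± 0.961 CPM in sgControl (SD, n = 4). The log2 fold change was then 0.98 (SE 0.29, 95% interval 0.33 to 1.63, unadjusted p = 0.00701), and the adjusted p of 0.134 in edgeR did not pass. Over its alternatives without sgCEBPD 3 the log2 fold change lay between 0.78 and 1.26 and the adjusted p between 0.0841 and 0.393, so the direction held and no alternative called it; a filter on a mean of at least 5 CPM left it untested. The monocyte and macrophage markers given above were high in the same library, and their part in the HMOX1 level was not tested.

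**Figure D2:**
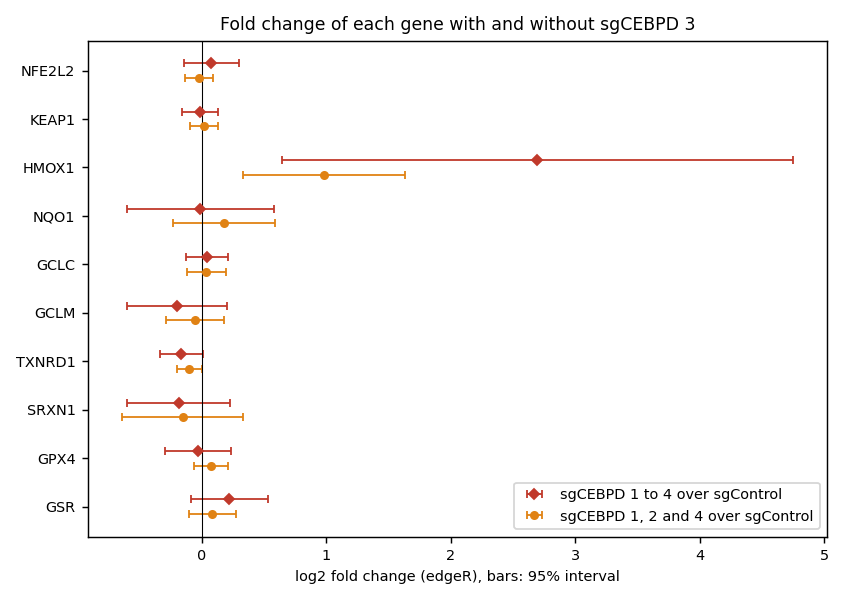
Log2 fold change over sgControl of each gene from edgeR, with all 4 sgCEBPD libraries (diamonds) and with sgCEBPD 1, 2 and 4 (circles); bars are 95% intervals, not adjusted for the number of genes. HMOX1 stands at 2.70 with 8 libraries and at 0.98 without sgCEBPD 3, and the other 9 genes stayed between -0.20 and 0.22.

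Genes most like HMOX1 over the libraries were sought among 10811 tested genes with a mean of at least 5 CPM, by Pearson's r of log2 CPM. Over the 8 libraries these were ANKRD13C (r = 0.993), EP300 (0.992) and UBE2R2 (0.988), and 179 genes had an r over 0.95, a likeness that rests largely on sgCEBPD 3. Over the 7 libraries without it, EP300, a histone acetyltransferase and coactivator (r = 0.969), ANKRD13C (0.958) and DDX59, an RNA helicase (0.944), came closest. There, 2 of the 10811 genes had an r over 0.95. Among so many genes, an r this high over 7 libraries can arise by chance, which was not tested. HMOX1 had only 21 to 78 reads in those libraries. EP300 stood at 259 CPM in sgCEBPD 3, 196 to 211 CPM in sgCEBPD 1, 2 and 4 and 181 to 198 CPM in the controls, a far narrower range than that of HMOX1.

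NQO1, a quinone reductase and a classical NRF2 target (chromosome 16, 69706996 to 69726951, minus strand), was lowest where HMOX1 was highest. It stood at 5.13, 6.13, 2.94 and 6.20 CPM in sgCEBPD 1, 2, 3 and 4, against 5.23, 5.80, 3.81 and 5.77 CPM in sgControl 1 to 4. The groups overlapped, and sgCEBPD 3 lay below all others at 50.5% of the mean of sgCEBPD 1, 2 and 4. With 30 reads its Wilson interval ran from 2.06 to 4.20 CPM and took in the lowest control. NQO1 had a log2 fold change of -0.01 (95% interval -0.60 to 0.58) with 8 libraries and 0.18 (-0.23 to 0.59) without sgCEBPD 3, so neither direction was resolved at this depth. An antisense gene shares 17.7% of the NQO1 exon bases, and without the strand setting reads of the 2 cannot be told apart.

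The 2 subunits of glutamate-cysteine ligase, which makes the first and rate-limiting step of glutathione synthesis, parted in sgCEBPD 3. GCLC, the catalytic subunit (chromosome 6, 53497341 to 53616970, minus strand), was level, at 53.7, 49.4, 53.6 and 56.8 CPM in sgCEBPD 1, 2, 3 and 4, against 56.9, 49.9, 50.1 and 50.8 CPM in sgControl 1 to 4. Its log2 fold change was 0.04 in both comparisons, with a 95% interval of -0.12 to 0.20 without sgCEBPD 3. GCLM, the modifier subunit (chromosome 1, 93885205 to 93909456, minus strand), stood at 37.7, 31.4, 22.1 and 37.4 CPM in sgCEBPD 1, 2, 3 and 4, against 42.6, 35.8, 37.7 and 31.4 CPM in sgControl 1 to 4. Only sgCEBPD 3 fell outside the control range, at 62.1% of the mean of sgCEBPD 1, 2 and 4, with a Wilson interval of 19.4 to 25.1 CPM from 225 reads. Between the groups GCLM differed by -0.20 on the log2 scale (SE 0.17, edgeR adjusted p = 0.655) with 8 libraries and -0.05 (95% interval -0.29 to 0.18) without sgCEBPD 3.

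The GCLM to GCLC ratio of CPM was 0.411 in sgCEBPD 3, against 0.636 to 0.703 in sgCEBPD 1, 2 and 4 and 0.618 to 0.752 in the controls. Across the 7 libraries without sgCEBPD 3 the log2 CPM of the 2 subunits had a Pearson's r of 0.71, and across all 8 an r of 0.23, as a description of libraries that share a cell line.

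**Figure D3:**
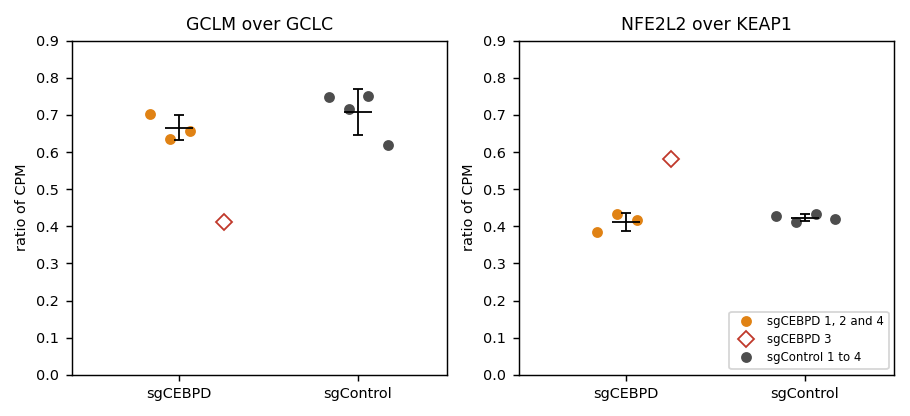
Ratios of CPM within each library, from axes that start at 0, for GCLM over GCLC on the left and NFE2L2 over KEAP1 on the right, with sgCEBPD left of sgControl; bars give the mean and SD without the open diamond, sgCEBPD 3. That library stands lowest for GCLM over GCLC, at 0.411, and highest for NFE2L2 over KEAP1, at 0.580.

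Of the reductases, thioredoxin reductase 1 was low and glutathione reductase high in sgCEBPD 3. TXNRD1, the cytosolic selenoenzyme that keeps thioredoxin reduced (chromosome 12, 104215779 to 104350305, plus strand), stood at 264, 243, 208 and 244 CPM in sgCEBPD 1, 2, 3 and 4, against 272, 260.0, 265 and 276 CPM in sgControl 1 to 4. The sgCEBPD 2, 3 and 4 libraries lay below every control and sgCEBPD 1 lay among them. The log2 fold change of TXNRD1 was -0.16 (SE 0.08, unadjusted p = 0.0629, adjusted p = 0.452 in edgeR) with 8 libraries. Without sgCEBPD 3 it was -0.10 (SE 0.05, unadjusted p = 0.0505, adjusted p = 0.326 in edgeR), after HMOX1 the second lowest p of the 10 genes. The value in sgCEBPD 3 was 83.2% of the mean of sgCEBPD 1, 2 and 4, with a Wilson interval of 199.5 to 217 CPM.

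GSR, which regenerates glutathione from its oxidised form (chromosome 8, 30678061 to 30727999, minus strand), stood at 121, 126, 163 and 104 CPM in sgCEBPD 1, 2, 3 and 4, against 107, 114, 98.3 and 120.5 CPM in sgControl 1 to 4. The other sgCEBPD libraries overlapped the controls, and sgCEBPD 3 was above all of them at 1.40-fold the mean of sgCEBPD 1, 2 and 4 (Wilson interval 155.5 to 171 CPM). The log2 fold change of GSR was 0.22 (SE 0.14, adjusted p = 0.543 in edgeR) with 8 libraries and 0.09 (95% interval -0.10 to 0.27) without sgCEBPD 3. SRXN1, sulfiredoxin, repairs overoxidised peroxiredoxins (chromosome 20, 646615 to 653370, minus strand), and it had only 21 to 31 reads in any library. It stood at 2.05, 2.08, 2.06 and 2.58 CPM in sgCEBPD 1, 2, 3 and 4, against 2.18, 3.00, 2.54 and 2.29 CPM in sgControl 1 to 4. The groups overlapped, and the 95% interval of its log2 fold change shows how little this depth resolves. It was -0.60 to 0.23 with 8 libraries and -0.64 to 0.33 without sgCEBPD 3. In GENCODE 85.0% of the SRXN1 exon bases are shared with a same-strand read-through gene that has no row in the table, so its counts are uncertain.

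GPX4 was the most abundant of the 10 genes per exon length. It encodes the selenoenzyme that reduces lipid hydroperoxides in membranes and restrains ferroptosis (chromosome 19, 1103926 to 1106791, plus strand). GPX4 stood at 248, 226, 180.2 and 269.7 CPM in sgCEBPD 1, 2, 3 and 4, against 225, 251, 232 and 235 CPM in sgControl 1 to 4. Without sgCEBPD 3 the groups overlapped with a log2 fold change of 0.07 (95% interval -0.06 to 0.21), and with 8 libraries it was -0.03 (adjusted p = 0.925 in edgeR). In sgCEBPD 3 it lay below all other libraries at 0.727-fold the mean of sgCEBPD 1, 2 and 4 (Wilson interval 172 to 189 CPM from 1839 reads).

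In all, 3 of the 10 genes (NFE2L2, HMOX1 and GSR) lay above and 5 (KEAP1, NQO1, GCLM, TXNRD1 and GPX4) below the other 7 libraries in sgCEBPD 3. Against that stand 34.8% of all tested genes above and 34.9% below in the same library, so 8 of 10 outside the range is near what genes at large showed. GCLC and SRXN1 lay inside, SRXN1 only under TMM or DESeq2 size factors, since it was the lowest by library totals. The median log2 ratio of sgCEBPD 3 to the mean of sgCEBPD 1, 2 and 4 was -0.11 over the 10 genes and -0.01 over all tested genes.

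Levels of different genes were compared as CPM per kilobase of merged exon in GENCODE. Merged exons take in every annotated transcript of a gene, so this length can exceed that of the transcript expressed. The order below holds for this measure only. In the controls GPX4 led with 117 ± 5.51, followed by KEAP1 (50.4 ± 2.52), TXNRD1 (39.99 ± 1.05), GSR (29.3 ± 2.52) and NFE2L2 (13.4 ± 0.430) (SD, n = 4), and the ranges of these neighbours did not overlap. GCLM (6.80 ± 0.853) and GCLC (6.004 ± 0.385) could not be ordered, since their ranges overlapped. NQO1 (1.58 ± 0.287), HMOX1 (1.12 ± 0.400) and SRXN1 (0.927 ± 0.134) came last, each overlapping the next. In sgCEBPD 3 HMOX1 stood at 22.6 CPM per kilobase, rank 5 of the 10, between TXNRD1 (31.0) and NFE2L2 (17.04), and GSR (43.4) was above TXNRD1.

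**Figure D4:**
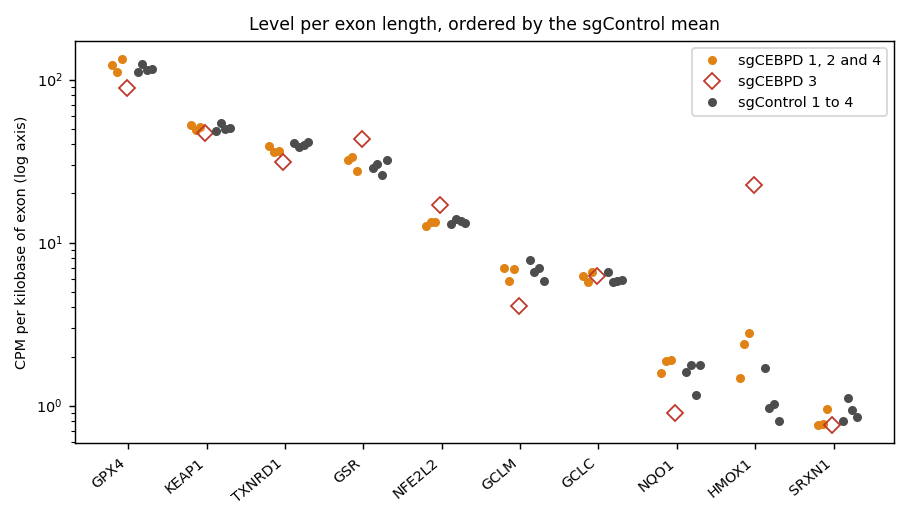
CPM per kilobase of exon on a log axis for the 10 genes, ordered by the sgControl mean, with sgCEBPD 1, 2 and 4, sgCEBPD 3 (open diamond) and sgControl from left to right at each gene. HMOX1 leaves its place near the bottom only in sgCEBPD 3, where it reaches 22.6.

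Around the 10 genes, 115 further genes of 8 pathway lists were set out, of which 108 were in the table and 99 were tested. With 8 libraries edgeR called 0 of the 99, with 15 at an unadjusted p under 0.05, beside 11.4% of all genes. DESeq2 called 3 of them, and 292 genes in all. Without sgCEBPD 3 edgeR called 1 that rose and 1 that fell, or 2 of 99 beside 2.01% of all genes, with 22 at an unadjusted p under 0.05, beside 15.5% of all genes. The median log2 fold change of the 99 was -0.01 in both comparisons, against 0.00 for all genes tested.

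Both called genes belong to the glutathione list, in which 27 of 33 genes were tested. Of these, 4 had an unadjusted p under 0.05 in each comparison, beside 11.4% and 15.5% of all genes with and without sgCEBPD 3. CHAC1, which degrades glutathione in the cytosol, stood at 6.90, 12.8, 22.9 and 14.9 CPM in sgCEBPD 1, 2, 3 and 4, against 3.31, 4.25, 3.62 and 6.13 CPM in sgControl 1 to 4. Every sgCEBPD library was above every control. CHAC1 rose by 1.42 on the log2 scale without sgCEBPD 3 (SE 0.29, edgeR adjusted p = 0.0471), and with 8 libraries the value was 1.73 (adjusted p = 0.185). The call ended in 7 of 15 alternatives. These were without sgControl 1, 2 or 3 or sgCEBPD 2 or 4 (adjusted p = 0.0910 to 0.157 in edgeR), limma-voom (adjusted p = 0.0720) and limma-voom with library quality weights. MGST1, a membrane glutathione transferase and peroxidase, stood at 117, 94.8, 75.9 and 105 CPM in sgCEBPD 1, 2, 3 and 4, against 159, 141, 139.9 and 159 CPM in sgControl 1 to 4. All sgCEBPD libraries lay below all controls. MGST1 fell by 0.50 on the log2 scale without sgCEBPD 3 (SE 0.08, edgeR adjusted p = 0.0150), which became 0.0561 without sgControl 1. With 8 libraries the value was -0.61 (adjusted p = 0.181 in edgeR). DESeq2 called both genes with 8 libraries, CHAC1 at an adjusted p of 0.00104 and MGST1 at 0.00285. Limma-voom with library quality weights called MGST1 (0.0207) and not CHAC1 (0.0573) there, and without weights it called neither (0.180 and 0.284).

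The next lowest p-values without sgCEBPD 3 belonged to 4 genes that did not pass in edgeR. GPX1, a glutathione peroxidase, had 947 ± 31.1 CPM in sgCEBPD (SD, n = 3) and 833 ± 35.9 CPM in sgControl (SD, n = 4; adjusted p = 0.0606 in edgeR). GCH1, which starts tetrahydrobiopterin synthesis, had 11.9 ± 1.44 CPM in sgCEBPD and 16.6 ± 1.29 CPM in sgControl, and stood at 21.8 CPM in sgCEBPD 3. NCOA4, the receptor for ferritin autophagy, had 335 ± 26.1 CPM in sgCEBPD and 429.8 ± 44.9 CPM in sgControl. ME1, malic enzyme 1, which supplies NADPH, had 5.01 ± 2.94 CPM in sgCEBPD and 1.86 ± 0.478 CPM in sgControl, with 8.40 CPM in sgCEBPD 2 alone. Some alternatives called 3 of these 4: DESeq2 called GPX1 (adjusted p = 0.00475), NCOA4 (0.00244) and ME1 (0.0274). In edgeR GPX1 passed with no filter (adjusted p = 0.0403) and without sgControl 2 (0.0395), and NCOA4 with the guide number as a block (0.0166) and without sgControl 2 (0.0116). With 8 libraries the adjusted p in edgeR was 0.359 for GPX1, 0.704 for GCH1, 0.314 for NCOA4 and 0.342 for ME1.

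Among regulators and partners of NRF2, 0 of 10 tested genes passed edgeR in either comparison. At an unadjusted p under 0.05 there were 0 with 8 libraries (11.4% of all genes) and 2 without sgCEBPD 3 (15.5% of all genes). BACH1, the repressor of HMOX1, stood at 85.8 CPM in sgCEBPD 3, against 62.1 to 64.4 CPM in sgCEBPD 1, 2 and 4 and 59.3 to 66.9 CPM in the controls. SQSTM1, which sequesters KEAP1, stood at 215 CPM in sgCEBPD 3, against 119 to 128 CPM in sgCEBPD 1, 2 and 4 and 118 to 129 CPM in the controls. MAFF, a small MAF partner, stood at 5.88 CPM in sgCEBPD 3 and at most 1.31 CPM elsewhere. BACH1, SQSTM1 and MAFF were picked after their values were seen. In sgCEBPD 3, 7 of the 10 tested genes lay above the other 7 libraries and 3 below. Of all tested genes, 34.8% lay above and 34.9% below there. The 3 below were CUL3, RBX1 and NFE2L3, at 0.852-fold, 0.881-fold and 0.891-fold the mean of sgCEBPD 1, 2 and 4.

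Of the 19 tested genes in the list of other NRF2 targets, 0 passed edgeR in either comparison, with 4 at an unadjusted p under 0.05 with 8 libraries (11.4% of all genes) and 8 without sgCEBPD 3 (15.5% of all genes). SLC7A11, the cystine importer that feeds glutathione synthesis, stood at 8.77, 13.2, 59.2 and 11.8 CPM in sgCEBPD 1, 2, 3 and 4, against 7.06, 6.96, 5.89 and 9.25 CPM in sgControl 1 to 4. The library sgCEBPD 3 was far above the rest, at 5.26-fold the mean of sgCEBPD 1, 2 and 4, and sgCEBPD 1 lay inside the control range. Without sgCEBPD 3 the log2 fold change of SLC7A11 was 0.63 (SE 0.19, adjusted p = 0.132 in edgeR). With 8 libraries that value was 1.67 (SE 0.60, adjusted p = 0.391 in edgeR).

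The thioredoxin and peroxiredoxin list had 0 of 16 genes past edgeR in either comparison. At an unadjusted p under 0.05 there were 1 with 8 libraries (11.4% of all genes) and 2 without sgCEBPD 3 (15.5% of all genes). In sgCEBPD 3, 10 of the 16 lay below the other 7 libraries and 3 above, where 34.9% of all tested genes lay below and 34.8% above. TXNIP, which binds and inhibits thioredoxin, had 30.2 CPM in sgCEBPD 3 (14.2% of the mean of sgCEBPD 1, 2 and 4, whose values were 158 to 244 CPM). The controls had 229 to 301 CPM. Among the 8 lipid peroxide and ferroptosis genes, of which 0 passed edgeR in either comparison and 4 had an unadjusted p under 0.05 in each (11.4% and 15.5% of all genes with and without sgCEBPD 3), PTGS2, the inducible cyclooxygenase, stood at 9.50 CPM in sgCEBPD 3. It had 1.12 to 1.79 CPM in sgCEBPD 1, 2 and 4 and 0.580 to 1.13 CPM in the controls.

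The heme list had 0 of 7 tested genes past edgeR in either comparison. In each, 1 had an unadjusted p under 0.05, beside 11.4% and 15.5% of all genes with and without sgCEBPD 3. BLVRA, biliverdin reductase A, which acts on the product of heme oxygenase, stood at 11.4 CPM in sgCEBPD 3, against 2.99 to 3.79 CPM in sgCEBPD 1, 2 and 4 and 2.17 to 3.19 CPM in the controls. FTH1, the ferritin heavy chain that stores the released iron, stood at 128 CPM in sgCEBPD 3, against 50.9 to 73.2 CPM in sgCEBPD 1, 2 and 4 and 45.6 to 56.6 CPM in the controls, and it has processed pseudogenes with which reads may be shared. CD163, the hemoglobin scavenger receptor of macrophages, which is also on the macrophage marker list, stood at 21.0 CPM in sgCEBPD 3 and at most 3.11 CPM elsewhere. Of the 7 tested heme genes, 4 lay above the other 7 libraries in sgCEBPD 3 (BLVRA, FTH1, FTL and ALAS1). The heme-making ferrochelatase gene FECH was the 1 below, at 41.6 CPM against 54.5 to 64.2 CPM elsewhere. Of all tested genes, 34.8% lay above and 34.9% below in that library. The share of heme genes outside the range, 71.4%, was thus near the 69.7% of all tested genes. HMOX2 (17.3 CPM) and the iron exporter SLC40A1 (3.23 CPM) lay inside the range of the others, and CD163 was not among the tested genes. The examples in the heme list were picked after their values were seen, and the levels of BLVRA, FTH1 and CD163 in sgCEBPD 3 stand beside the macrophage markers of the same library, whose part was not tested. The superoxide and selenoprotein lists (4 and 8 tested genes) had 0 genes past edgeR in either comparison. At most 1 gene of each had an unadjusted p under 0.05, beside the same shares of all genes, 11.4% and 15.5%.

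Past 2-fold in sgCEBPD 3 from the mean of sgCEBPD 1, 2 and 4 lay 9 of the 99 genes above and 3 below, or 12.1% in all, against 13.1% of all tested genes.

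**Figure D5:**
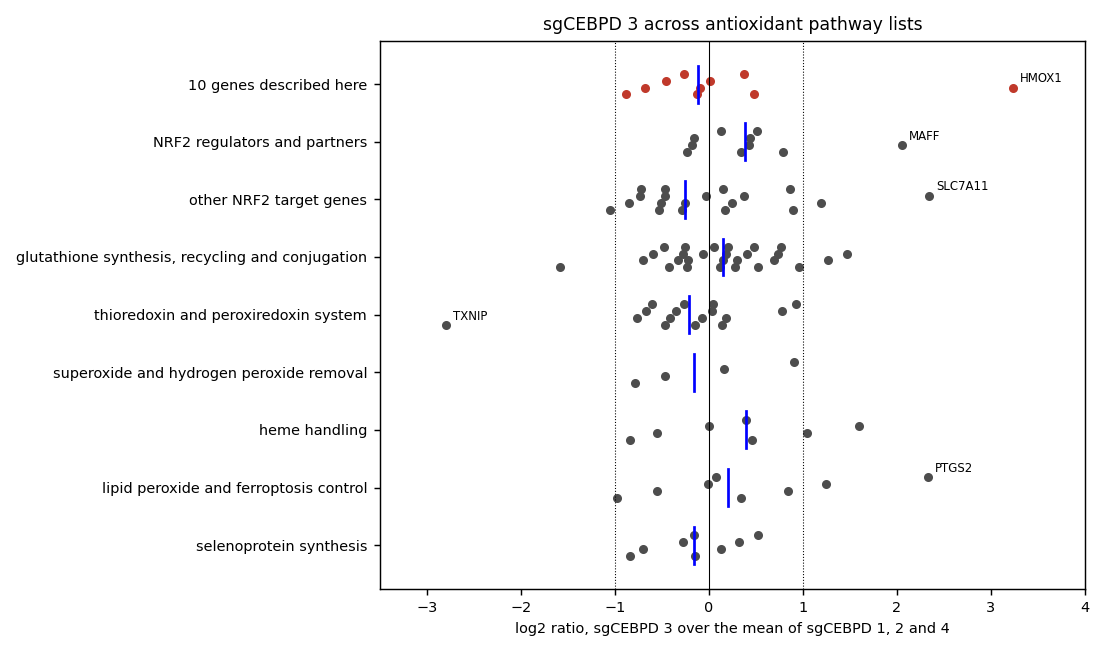
Log2 ratio of sgCEBPD 3 over the mean of sgCEBPD 1, 2 and 4 for the 10 genes (top row) and the tested genes of the 8 pathway lists, 1 point a gene, with blue lines at the median of each list and dotted lines at 2-fold. HMOX1 stands far to the right of the other 9 genes, and TXNIP is the farthest point to the left.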

How the data were processed

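The table the authors deposited holds raw counts, whole reads for each gene. The submitters' processing notes name hg38, HISAT2, FastQC and DESeq2, with no versions or roles; the counter, its strand setting and the annotation are not given in the sources used here. Columns were matched by library name, and 0 columns were left unmatched.

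The main test was that of edgeR 4.0.16 in R 4.3.3 (filterByExpr by group, TMM, robust quasi-likelihood fit on the group alone), with Benjamini-Hochberg adjustment over all genes tested and a threshold of 0.05. CPM use the TMM factors of the 8 libraries. The SE is the absolute log2 fold change over the square root of F. Ratios on a log2 scale add 0.5 CPM, and correlations use log2 CPM with a prior count of 2. DESeq2 1.42.0, limma 3.58.1, other scalings and filters, each library left out and the guide number as a block were alternatives. Guide numbers were not treated as pairs: same-numbered libraries deviated from their group means with correlations of -0.08 to 0.06.

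The members and lists were chosen with earlier results of these data known. By rule, genes of the lists are named when called in either comparison, filled to 6 by the lowest p without sgCEBPD 3. The rule also names those past 4-fold in sgCEBPD 3 with a mean of at least 2 CPM. Genes of the regulator and heme lists are named outside this rule. Of these, BACH1, SQSTM1, MAFF and the heme examples were picked after their values were seen. Positions are from GENCODE release 29. Marker lists of erythroid and B cells were also summed: 342 and 5.00 CPM in sgCEBPD 3, against 228 to 291 and 2.36 to 6.02 CPM elsewhere.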

Additional observations from a re-analysis of the deposited data

Results flagged for a closer look

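Among 38 groups of 4 libraries, 10 genes and 9 further named genes in each group, 8 had 1 library set well apart from its group. Independent groups would do so by chance in about 1 of 20, here 1.9. These groups share the same libraries, so 8 against 1.9 is no test of chance. The library sgCEBPD 3 was the one apart in 4: HMOX1 at 54.4 CPM (3.55 to 6.72 CPM in sgCEBPD 1, 2 and 4), NFE2L2 at 102 CPM (76.0 to 80.5), SLC7A11 at 59.2 CPM (8.77 to 13.2) and PTGS2 at 9.50 CPM (1.12 to 1.79). SLC7A11 and PTGS2 were named for their distance in that library. Of all tested genes, 69.7% lay outside the range of the other 7 libraries there. The chance rate is therefore no guide for any of these 4 genes.

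SRXN1 stood at 2.58 CPM in sgCEBPD 4, against 2.05 to 2.08 CPM in the other sgCEBPD libraries. ME1 stood at 8.40 CPM in sgCEBPD 2, against 2.55 to 3.36 CPM in the other sgCEBPD libraries. Among the controls, GCLC stood at 56.9 CPM in sgControl 1, against 49.9 to 50.8 CPM. PTGS2 stood at 0.580 CPM in sgControl 2, against 1.09 to 1.13 CPM, which is only 6 reads against 12 to 13.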

How the results depend on the processing

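No alternative called any of the 10 genes, with or without sgCEBPD 3, and HMOX1 kept its direction in all that tested it. With 8 libraries the count over all genes, 11, was 292 in DESeq2, 234 in limma-voom with library quality weights, 20 with no filter and 1 at an adjusted p under 0.01. Taking the guide number for a replicate block gave 1. With 1 library left out it was 0 (sgCEBPD 2) to 283 (sgCEBPD 3), with 1 without sgControl 1, 3 or 4 and 6 without sgControl 2 or sgCEBPD 1. Without sgCEBPD 3 the count of 283 was 596 in DESeq2, 403 with no filter, 40 at an adjusted p under 0.01 and 352 with the block. With a further library left out it was 66 (sgControl 1) to 312 (sgCEBPD 4), with 139 to 152 without sgControl 3 or 4 or sgCEBPD 1 or 2. The count of other pathway genes with 8 libraries, 0, was 3 in DESeq2, 1 with quality weights and 0 to 2 with a library left out, the 2 without sgCEBPD 3. Without sgCEBPD 3 the count of 2 was 9 in DESeq2, 1 in limma-voom with or without quality weights, 0 at an adjusted p under 0.01, and 0 (without sgControl 1) to 3 with a further library left out. With quality weights and 8 libraries the log2 fold changes of NFE2L2 (-0.0186), KEAP1 (0.026), NQO1 (0.18) and GPX4 (0.0729) changed sign. With 1 of the 8 libraries left out, NFE2L2 ran from -0.0244 to 0.13, KEAP1 from -0.0382 to 0.019, NQO1 from -0.13 to 0.18 and GPX4 from -0.11 to 0.0742. With 1 of the 7 left out, NFE2L2 ran from -0.0418 to 0.0028, KEAP1 from -0.0077 to 0.049, GCLC from -0.0108 to 0.0924 and GCLM from -0.12 to 0.0297. The cause was not tested. Depth limits NQO1 and SRXN1 in every library, and HMOX1 outside sgCEBPD 3, most.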
